A study of Rattus norvegicus with 4 samples.

Results

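Interferon response and antigen presentation genes were followed in ribosome footprints of neonatal rat heart muscle cells after knockdown of Cpeb4. The 38 genes were chosen by name, as sensors of viral RNA, interferon signalling factors, interferon-induced effectors and components of peptide presentation on MHC class I. Of these, 37 were found by exact symbol among the 22250 genes of the count files, and 34 passed the low-count filter and were tested. Counts of Oas1b were not analysed here, and Ifit1, Oas1i and Tap2 were listed at 0 in all 4 libraries. A count of 0 allows up to 3 counts, which is 0.508 to 0.844 counts scaled to the library's gene total (CPM), depending on the library. It covers counting error only. The collagen gene Col1a2 was likewise listed at 0 in all 4 libraries, while its partner chain Col1a1 was at 5374 to 8586 CPM, so a listed 0 is not read here as absence of expression. The files hold uniquely mapped reads, so genes with near-identical copies, such as those of the Ifit, Oas1 and RT1 families, are uncertain.

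The cells were ventricular cardiomyocytes of Wistar rats aged 1 to 2 days, isolated by trypsin and a Percoll gradient. Control siRNA was given to the cells of 2 libraries and siRNA against Cpeb4 to those of 2 others, for 72 h, and ribosome footprints were recovered from polysome fractions. CPEB4 binds cytoplasmic polyadenylation elements in mRNAs and regulates their poly(A) tails and translation. The growth protocol also names Torin1 (250 nM, 24 h), an inhibitor of the kinase complex mTORC1, without saying which samples received it. Both groups received an siRNA and no untransfected library was analysed here, so a response to siRNA itself was not tested. Nothing states that the replicates are separate cultures, and p-values therefore reflect only the spread between these libraries, which may be technical.

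Interferons are secreted when receptors such as TLR3, RIG-I (Ddx58) and MDA5 (Ifih1) detect double-stranded or viral RNA. Type I interferon acts through the receptor chains Ifnar1 and Ifnar2 and the kinases Jak1 and Tyk2 on a transcription factor complex that holds STAT2 and IRF9. That complex binds the interferon-stimulated response element (ISRE) in promoters and induces antiviral effectors together with the immunoproteasome and the peptide transporter that supply MHC class I. Some synthetic siRNAs can engage the same sensors, and in heart cultures both myocytes and non-myocytes can respond.

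Promoter motifs describe these genes, which were chosen by name, and not their change after Cpeb4 knockdown. RefSeq windows (rat assembly GRCr8) running from 250 bases before to 50 after the gene start were matched for 30 of the 38 genes. The ISRE core was searched on both strands as GAAA, any 2 bases and GAAA again, which on the other strand is TTTC, any 2 bases and TTTC. It was present in 21 of the 30 windows (70%), against 3.92% of all 33469 windows of the same length. The interferon-gamma activated site, TTCNNNGAA, was in 7 windows (23.3%, against 8.87% of all), and an NF-kB type site, GGG and TTCC with any 3 bases between them, was in 8 (26.7%, against 5.37%). Matches of 2 different motifs overlapped each other in the Bst2 window. Among 53 windows of a wider list of pathway genes, 17 (32.1%) held the ISRE core. Windows of Gbp2, Gbp4 and Gbp5 also held the core but are not shown, and no window was matched for Isg15 or Usp18. The following stretches, each of 30 bases, are upstream of the gene start and 5′ to 3′ on the gene's strand. Capitals mark the match, for 1 gene or more of each remaining role and for the gene with the clearest change, Ifi44:
Ifih1, chr3:67684008-67684037, minus strand: gaagagaatcGAAACAGAAAccgatgtgtg
Irf7, chr1:205800073-205800102, minus strand: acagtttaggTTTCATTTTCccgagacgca
Ifit3, chr1:241527272-241527301, plus strand: tttaagtctgTTTCAGTTTCtagtttccac
Rsad2, chr6:48788248-48788277, minus strand: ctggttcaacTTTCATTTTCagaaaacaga
Ifi27, chr6:128355218-128355247, plus strand: gagagctgggGAAATGGAAActtacctcat
Ifi44, chr2:243303847-243303876, minus strand: gcacactgagTTTCAGTTTCatttcccagg
Cxcl10, chr14:15988816-15988845, plus strand: cgctttgGAAAGTGAAActtaactcactca
Tap1, chr20:4668645-4668674, minus strand: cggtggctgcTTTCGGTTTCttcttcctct
B2m, chr3:129549170-129549199, plus strand: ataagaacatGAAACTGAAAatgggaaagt
In Ifi44 the match began 26 bases before the gene start, in Ifit3 44 bases and in B2m 150 bases before it. The Mx1 window held none of the 3 motifs. A match is a run of letters and not a measured binding site.

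Gene counts summed to between 3554011 in control replicate 2 and 5910911 in Cpeb4 siRNA replicate 2. The targeted gene fell from 59.9 and 71.2 CPM in the controls to 8.18 and 9.98 CPM after Cpeb4 siRNA (edgeR adjusted p = 1.57e-09). All 8 cardiomyocyte markers, such as Myh6 and Tnnt2, were detected, with summed levels of 62309 to 75254 CPM. Fibroblast markers summed to 13061 and 12026 CPM in the controls and to 9691 and 9148 CPM after Cpeb4 siRNA. Col1a1 and Col3a1 made up most of this sum. Without overlap, 3 of the 6 tested were lower, against 19.5% of all genes tested, while Postn, Dcn and Lum overlapped. All 6 tested had negative log2 fold changes (median -0.27), and 1, the collagen gene Col1a1, fell (-0.55 ± 0.11, edgeR adjusted p = 0.00339). The part of this difference in the results below was not tested. The summed level was 131 to 162 CPM for endothelial markers and 662 to 919.9 CPM for macrophage and leukocyte markers. Of the last, Cd3e, which defines T cells, was at 0, while macrophage genes such as Csf1r and Cd68 were detected in every library. In bulk footprints, fewer cells of a type, less RNA per cell and less translation of that RNA cannot be told apart. No RNA levels were analysed here, so mRNA amount and its translation were not separated for any gene.

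No general induction or loss of these genes was seen after Cpeb4 knockdown. Of the 34 genes tested, 1 rose (Mx1) and 1 fell (Ifi44) at an adjusted p under 0.05 in edgeR, where 3.41% of all 11335 genes tested were called (1.54% higher and 1.87% lower). The median log2 fold change was 0.13, against -0.003 for all genes tested, and 22 of the 34 were positive. An unadjusted edgeR p under 0.05 was reached by 8 of the 34 (23.5%), and by 16.1% of all genes tested. Control and siCpeb4 libraries did not overlap in 13 of the 34 genes (38.2%), 10 higher (29.4%) and 3 lower (8.82%) after Cpeb4 siRNA. Over all genes tested that was so for 46.0% (26.5% higher and 19.5% lower). With directions pooled, non-overlap was thus not more frequent among these genes. The share of higher genes was near the background, and that of lower genes was below it.

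**Figure D1:**
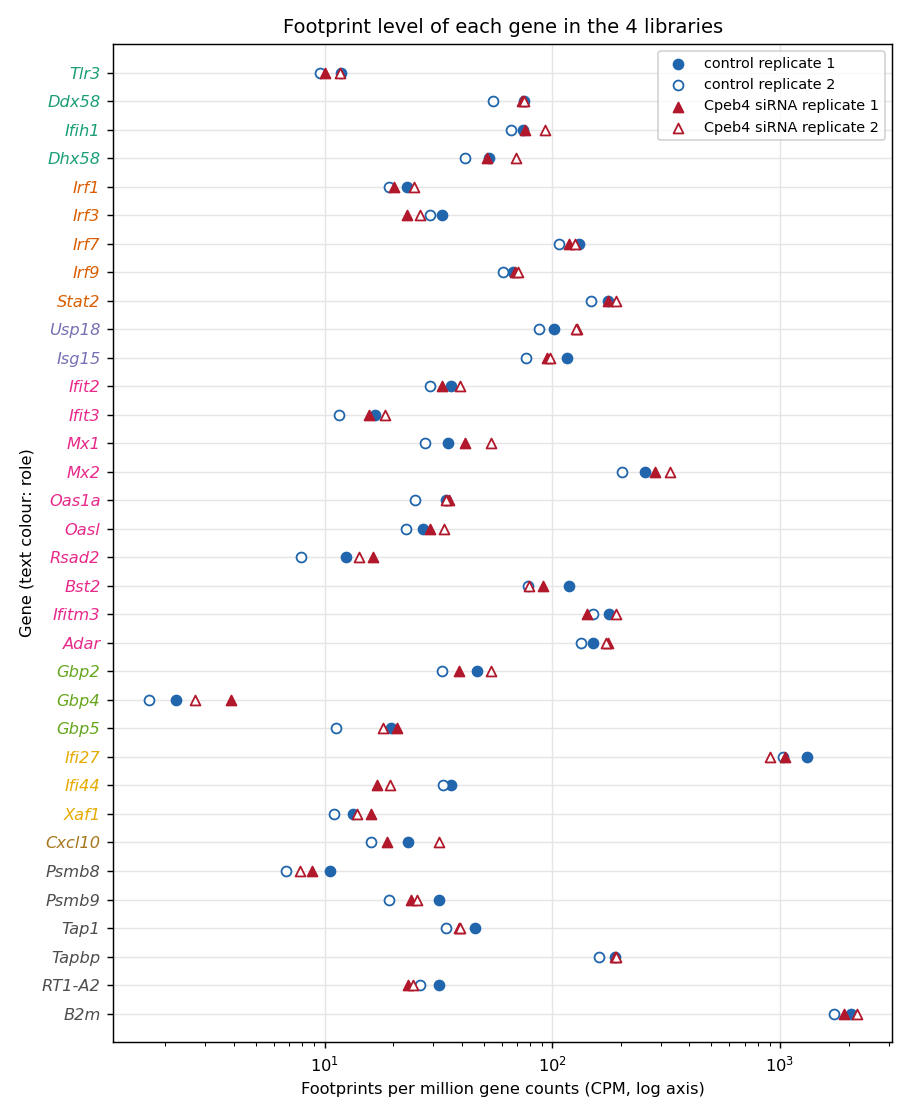
Footprint level of each of the 34 tested genes in CPM (log axis), with 1 symbol per library and gene names coloured by role. The filled blue circle (control replicate 1) lies to the right of the open one (control replicate 2) for every gene, and the red triangles of Cpeb4 siRNA lie to the left of both controls in 3 genes, among them Ifi44.

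Ifi44, an interferon-induced cytoplasmic protein, had the largest change. Its level was 36.0 and 33.2 CPM in the controls and 17.0 and 19.5 CPM after Cpeb4 siRNA. Both siCpeb4 libraries lay far below both controls, and the gap between groups was larger than the spread within either. Control libraries averaged 34.6 ± 1.97 CPM and siCpeb4 libraries 18.2 ± 1.75 CPM (SD, n = 2). The log2 fold change was -0.96 with an SE of 0.17 (edgeR adjusted p = 0.00166), and ± after a log2 fold change is the SE throughout. It was called in each of the 11 other fits, with adjusted p up to 0.0229 without control replicate 1. Its paralogue Ifi44l, not one of the 38 genes and named after its values were seen, was at 14.2 and 8.44 CPM in the controls and 15.7 and 24.4 CPM after Cpeb4 siRNA. It had a log2 fold change of 0.75 ± 0.25 that did not pass (edgeR adjusted p = 0.104), so the 2 paralogues had opposite signs.

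Mx1 and Mx2 are dynamin-like GTPases that block viral replication. Mx1 was at 35.0 and 27.6 CPM in the controls and 41.5 and 53.8 CPM after Cpeb4 siRNA. The groups did not overlap, but the spread within each was wide. Its log2 fold change of 0.56 ± 0.16 lay at the threshold (edgeR adjusted p = 0.04996). It was called in 4 of 11 other fits. The call ended without control replicate 2 (edgeR adjusted p = 0.30) or Cpeb4 siRNA replicate 2 (0.357), with RLE scaling (0.0513), library totals (0.0539) or the 30-count filter (0.0561), in limma-voom (0.0683) and in DESeq2 (0.221). Mx2 was at 256 and 203 CPM in the controls and 282 and 328 CPM after Cpeb4 siRNA, again without overlap. It did not pass (log2 fold change 0.38 ± 0.12, edgeR adjusted p = 0.0818), though it did without control replicate 1 (0.0349) and without the low-count filter (0.0208).

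The sensors of RNA had small positive or near-zero values. Dhx58 (LGP2), which modulates signalling by the other 2 cytosolic sensors, was at 52.9 and 41.4 CPM in the controls and 52.0 and 69.4 CPM after Cpeb4 siRNA. The lower siCpeb4 library fell between the controls, and the log2 fold change of 0.32 ± 0.15 did not pass (edgeR adjusted p = 0.286). Log2 fold changes were 0.23 ± 0.13 for Ifih1, 0.15 ± 0.13 for Ddx58 and -0.02 ± 0.24 for the endosomal receptor Tlr3. None of the 4 sensors was called.

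Among transcription factors, Irf3, which the sensors activate, had the lowest value. It was at 32.9 and 28.98 CPM in the controls and 23.1 and 26.4 CPM after Cpeb4 siRNA. Both siCpeb4 libraries were below both controls, with a log2 fold change of -0.36 ± 0.16 that did not pass (edgeR adjusted p = 0.284). Irf7, the interferon-induced amplifier of the response, was at 132 and 107 CPM in the controls and 118 and 126 CPM after Cpeb4 siRNA. The siCpeb4 libraries lay inside the control range. Stat2 was at 175 and 148 CPM in the controls and 175 and 191 CPM after Cpeb4 siRNA, with a log2 fold change of 0.15 ± 0.11. Irf9 (0.09 ± 0.12) and Irf1 (0.05 ± 0.19) were near 0, and none of the 5 factors was called.

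Neither gene of the ISG15 system was called. ISG15 is a ubiquitin-like protein that is attached to other proteins, and Usp18 removes it and restrains the type I interferon receptor. Usp18 was at 101 and 87.5 CPM in the controls and 128 and 127 CPM after Cpeb4 siRNA. The siCpeb4 libraries were nearly equal and above both controls, and the log2 fold change of 0.40 ± 0.11 just missed the threshold (edgeR adjusted p = 0.0591). It passed without the low-count filter (edgeR adjusted p = 0.0339). Isg15 was at 116 and 76.8 CPM in the controls and 94.9 and 97.8 CPM after Cpeb4 siRNA. Both siCpeb4 libraries fell between the widely spaced controls, and the log2 fold change was -0.04 ± 0.14.

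Antiviral effectors had 8 positive and 2 negative values among 10 tested, with a median log2 fold change of 0.23 and 1 call, Mx1. Adar, the RNA-editing enzyme that marks cellular double-stranded RNA as self, was at 151 and 134 CPM in the controls and 176 and 173 CPM after Cpeb4 siRNA. The groups did not overlap, but the log2 fold change of 0.26 ± 0.11 did not pass (edgeR adjusted p = 0.238). Rsad2 (viperin) was at 12.4 and 7.88 CPM in the controls and 16.4 and 14.2 CPM after Cpeb4 siRNA (log2 fold change 0.51 ± 0.24, edgeR adjusted p = 0.311). Ifitm3, which blocks viral entry, was at 178 and 152 CPM in the controls and 143 and 190 CPM after Cpeb4 siRNA. The siCpeb4 libraries lay on either side of the controls. Bst2 (tetherin), which holds budding virus at the cell surface, was at 119 and 78.2 CPM in the controls and 90.8 and 78.7 CPM after Cpeb4 siRNA. Its log2 fold change was -0.27 ± 0.15, and control replicate 1 alone stood above the other 3 libraries. The RNA-binding Ifit2 (0.12 ± 0.16) and Ifit3 (0.21 ± 0.22) and the oligoadenylate synthetase family members Oas1a (0.17 ± 0.16) and Oasl (0.29 ± 0.17) did not pass.

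Of the remaining induced genes, Ifi27, a small membrane protein, was at 1320 and 1032 CPM in the controls and 1049 and 904 CPM after Cpeb4 siRNA. Groups overlapped, and the log2 fold change of -0.30 ± 0.12 did not pass (edgeR adjusted p = 0.187). The related gene Ifi27l2b, also outside the list and named after its values were seen, fell from 144 and 99.0 CPM to 80.6 and 84.9 CPM (log2 fold change -0.60 ± 0.14, edgeR adjusted p = 0.0153). Its call ended without control replicate 1 (edgeR adjusted p = 0.568), Cpeb4 siRNA replicate 1 (0.0772) or Cpeb4 siRNA replicate 2 (0.0855). The chemokine Cxcl10, which attracts T cells, was at 23.4 and 16.0 CPM in the controls and 18.8 and 31.8 CPM after Cpeb4 siRNA, with overlap. The guanylate-binding proteins Gbp2 (0.18 ± 0.17), Gbp4 (0.66 ± 0.46) and Gbp5 (0.25 ± 0.23) and the apoptosis factor Xaf1 (0.24 ± 0.22) were positive and uncalled. Gbp4 had 13 and 6 counts in the controls and 19 and 16 after Cpeb4 siRNA, so its fold change carries a wide error.

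Most antigen presentation genes did not share the positive values of the effectors in the fit with all 4 libraries. Of 6 tested, 4 were negative and none was called, with a median log2 fold change of -0.10. B2m, the light chain of MHC class I, was at 2040 and 1722 CPM in the controls and 1906 and 2179 CPM after Cpeb4 siRNA. The groups overlapped, and its log2 fold change was 0.09 ± 0.11. Tapbp (tapasin), which loads peptide onto class I, was at 189 and 160 CPM in the controls and 189 and 191 CPM after Cpeb4 siRNA. The class I heavy chain RT1-A2 had the lowest value, -0.32 ± 0.17, with both siCpeb4 libraries (23.3 and 24.5 CPM) below both controls (31.9 and 26.2 CPM), but did not pass (edgeR adjusted p = 0.361). The immunoproteasome subunits Psmb8 (-0.14 ± 0.28) and Psmb9 (-0.12 ± 0.20) and the transporter Tap1 (-0.08 ± 0.15) were close to 0. Without control replicate 1 their log2 fold changes were positive (0.25, 0.33 and 0.15), so their negative signs rest on that library. The difference between antigen presentation genes and effectors was not tested.

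**Figure D2:**
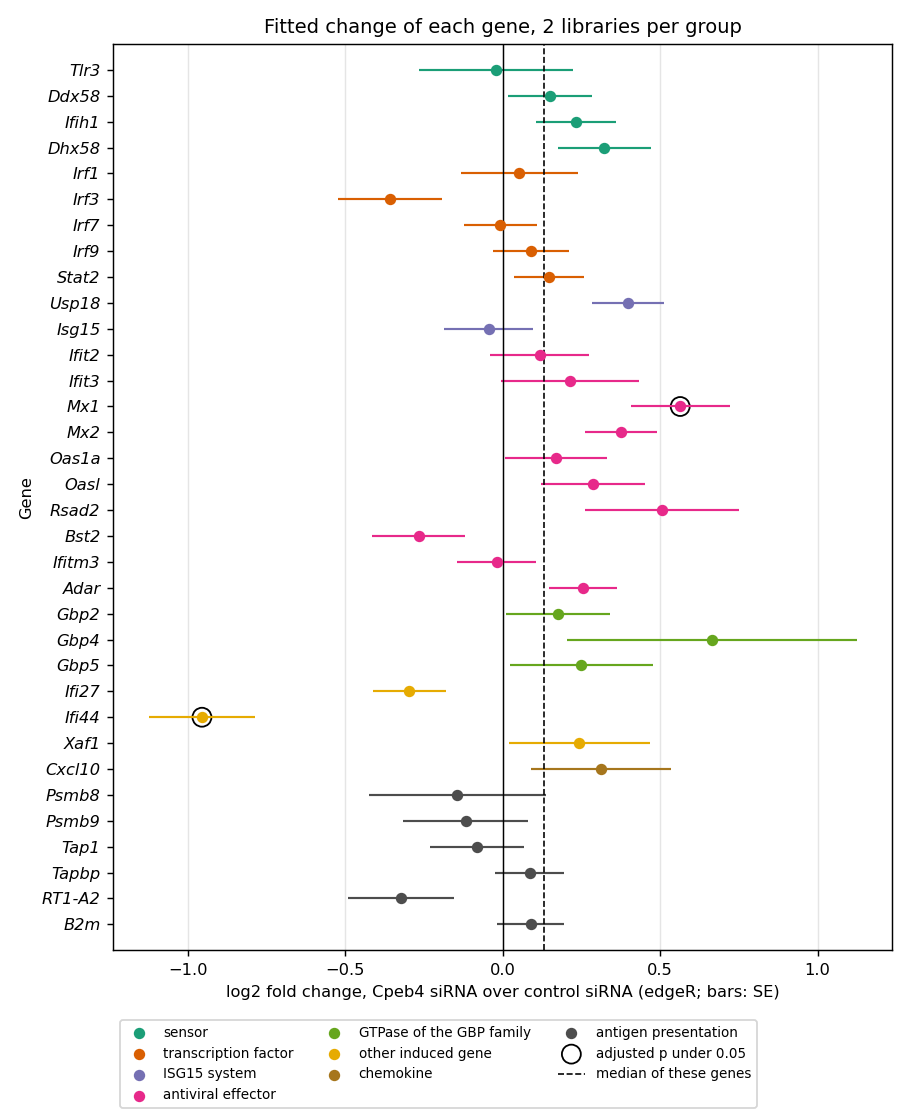
Log2 fold change of Cpeb4 siRNA over control siRNA for each of the 34 tested genes (edgeR, bars are SE), coloured by role, with circles around the 2 genes with an adjusted p under 0.05. Values run from -0.96 (Ifi44) to 0.66 (Gbp4), and the dashed line is the median of 0.13.

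The 2 control libraries differed from each other in these genes. All 34 tested genes had a higher CPM in control replicate 1 than in control replicate 2, as had 53.2% of all genes tested. The median difference was 0.29 on the log2(CPM + 1) scale, against 0.02 for all genes, and ranged from 0.11 for Ifi44 to 0.75 for Gbp5. It was 0.71 for Psmb9, 0.60 for Bst2 and 0.58 for Isg15. All 34 were also higher in control replicate 1 under TMM, RLE and upper-quartile scaling. The difference between the controls exceeded that between the group means in 23 of the 34 genes (67.6%, against 48.5% of all genes tested).

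Most of the 34 genes were higher in the siCpeb4 libraries than in control replicate 2, whereas fewer were higher than in control replicate 1. Against control replicate 2, 30 of the 34 genes were higher in Cpeb4 siRNA replicate 1 and 30 in Cpeb4 siRNA replicate 2. Against control replicate 1, 12 were higher in Cpeb4 siRNA replicate 1 and 21 in Cpeb4 siRNA replicate 2. The median log2 fold change accordingly was 0.30 without control replicate 1 and -0.02 without control replicate 2. It was 0.16 without Cpeb4 siRNA replicate 1 and 0.04 without Cpeb4 siRNA replicate 2, and Ifi44 was called in all 4 of these fits. For 18 tested genes with an ISRE core in their window the median log2 fold change was 0.13 (11 positive), and for 9 without one it was 0.05 (5 positive). The controls differed by a median of 0.38 in the former and 0.25 in the latter.

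**Figure D3:**
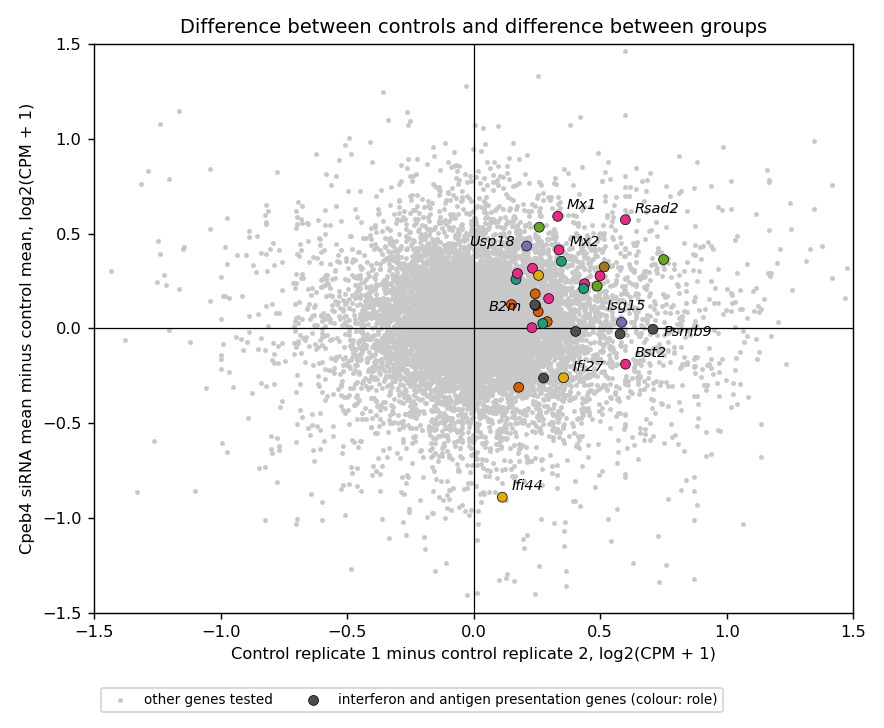
Each point is a gene, with the difference between control replicates 1 and 2 on the x axis and the difference between the group means on the y axis, both in log2(CPM + 1). The interferon and antigen presentation genes (coloured by role) all lie to the right of 0, at 0.11 to 0.75, whereas on the y axis they lie on both sides of 0. The plot leaves out 14 other genes beyond 1.5 on either axis.

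**Figure D4:**
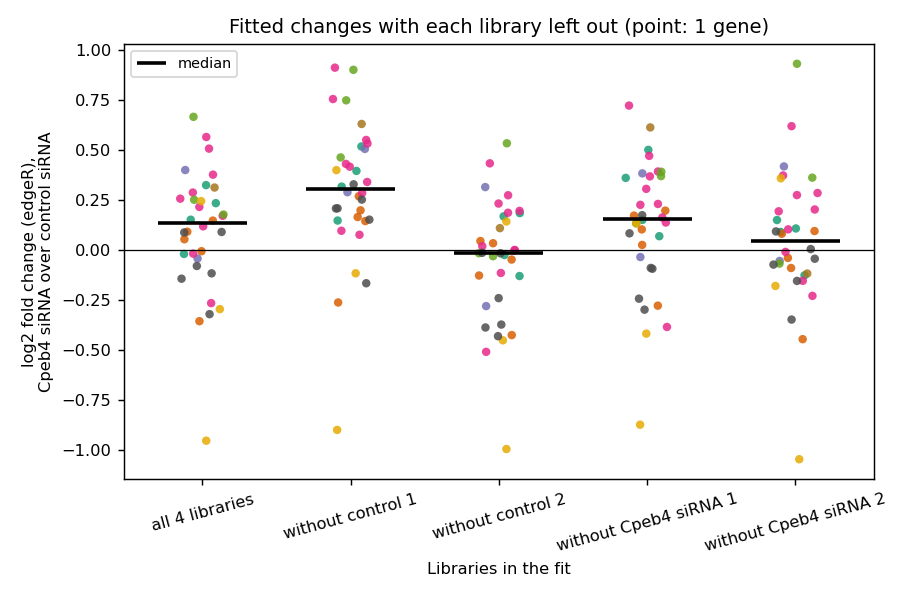
Log2 fold changes of the 34 genes (points, coloured by role) in fits with all 4 libraries and with each library left out, with the median as a bar. The median moves from 0.30 without control replicate 1 to -0.02 without control replicate 2, while the lowest point, Ifi44, lies between -0.88 and -1.05.

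Markers of some other cells, but not of smooth muscle and pericytes, were also higher in control replicate 1. The median of control replicate 1 minus control replicate 2 was 0.41 for macrophage and leukocyte markers (11 of 12 tested higher in replicate 1), 0.36 for endothelial markers (6 of 6) and 0.23 for fibroblast markers (6 of 6). It was -0.09 for cardiomyocyte markers, of which 0 of 8 were higher in replicate 1, and -0.04 for smooth muscle and pericyte markers (2 of 6 higher). Summed over the 37 genes found, the interferon and antigen presentation level was 5538, 4498, 5057 and 5386 CPM in control replicates 1 and 2 and Cpeb4 siRNA replicates 1 and 2. The summed macrophage and leukocyte level was 919.9, 662, 715 and 816 CPM in the same order, so both sums were highest in control replicate 1 and lowest in control replicate 2. B2m and Ifi27 made up most of the first sum. Without them it was 2178, 1744, 2102 and 2303 CPM, with Cpeb4 siRNA replicate 2 highest. Of the other marker lists, the endothelial sum was also highest in control replicate 1 and lowest in control replicate 2. The fibroblast sum was lowest in Cpeb4 siRNA replicate 2, as were Col1a1 and Col3a1. Postn, Dcn, Lum and Pdgfra were lowest in Cpeb4 siRNA replicate 1. The cardiomyocyte sum and the smooth muscle and pericyte sum were lowest in control replicate 1, as were the abundant Actc1, Myh6 and Acta2. Actn2, Ryr2, Tnnt2 and Tnni3 were lowest in Cpeb4 siRNA replicate 2, and Pdgfrb and Rgs5 in control replicate 2. The order of a sum thus follows its most abundant genes. The part of non-myocytes in the levels of the interferon and antigen presentation genes was not tested.

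**Figure D5:**
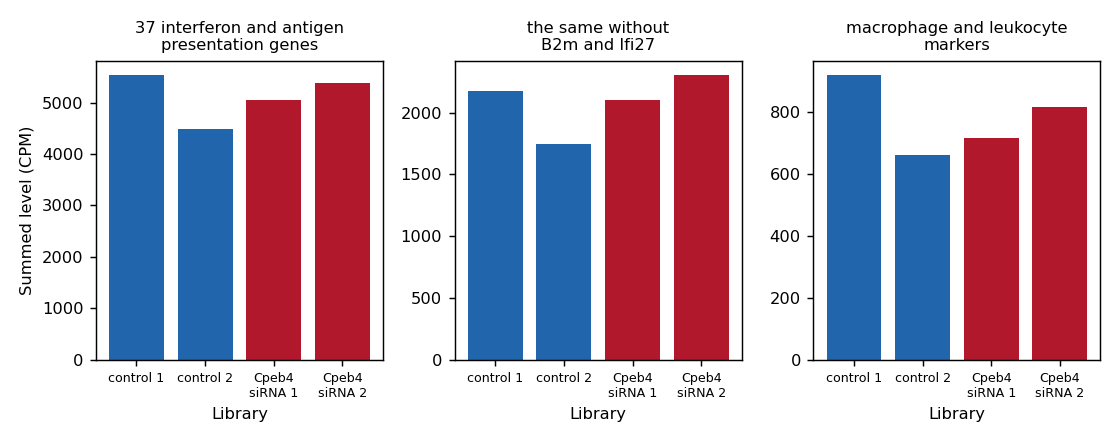
Summed CPM in each library of the 37 genes (left), of the same genes without B2m and Ifi27 (middle) and of macrophage and leukocyte markers (right), with controls in blue and Cpeb4 siRNA in red. Control replicate 2 is the lowest bar in each panel, at 4498, 1744 and 662 CPM.

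Upstream of these genes, no footprint was counted for any of the 11 interferon ligand genes in the files, including Ifnb1 and Ifng. They were listed at 0 in every library, which allows up to 0.508 to 0.844 CPM each for counting error, and the caution drawn from Col1a2 holds for them too. The receptor chains were present. Ifnar1 was at 64.8 and 55.7 CPM in the controls and 59.3 and 65.3 CPM after Cpeb4 siRNA, and Ifnar2 at 42.5 and 47.8 against 49.3 and 50.9 CPM. The interferon-gamma receptor chains had log2 fold changes of 0.14 ± 0.11 (Ifngr1) and 0.44 ± 0.19 (Ifngr2), neither called.

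In a wider list of 71 further pathway genes, 62 were tested, of which 1 rose and 1 fell in edgeR. Over all genes tested 3.41% were called (1.54% higher and 1.87% lower), so the wider list was near the background in calls. Groups did not overlap in 53.2% of the 62 (37.1% higher and 16.1% lower), against 46.0% of all genes tested (26.5% and 19.5%). Control replicate 1 was above control replicate 2 in 49 of the 62, with a median difference of 0.22 in log2(CPM + 1). Of the 62, 39 were positive, and the median log2 fold change was 0.07. Trim25, a ubiquitin ligase that activates RIG-I, fell from 95.7 and 97.1 CPM in the controls to 69.1 and 62.3 CPM after Cpeb4 siRNA. Its replicates were close. The log2 fold change was -0.58 ± 0.12 (edgeR adjusted p = 0.00615), and the call ended without Cpeb4 siRNA replicate 2 (0.0717). Helz2, a helicase-like transcriptional coactivator, rose from 9.38 and 11.3 CPM to 16.8 and 20.8 CPM (log2 fold change 0.86 ± 0.22, edgeR adjusted p = 0.0348). Its call ended without control replicate 1 (edgeR adjusted p = 0.346) or Cpeb4 siRNA replicate 2 (0.223).

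In this wider list 12 genes had an unadjusted p under 0.05 in edgeR (19.4%, against 16.1% of all genes tested). Besides Helz2, those with positive values were Parp9 (0.40 ± 0.13), the RNA-activated kinase PKR, Eif2ak2 (0.37 ± 0.12), the GTPase Igtp (0.44 ± 0.15), Znfx1 (0.37 ± 0.13), Pml (0.32 ± 0.12), Samhd1 (0.49 ± 0.20) and Ifngr2. Besides Trim25, those with negative values were the ISG15-conjugating enzyme Ube2l6 (-0.44 ± 0.17), the MHC class II chain RT1-Ba (-0.87 ± 0.38) and the proteasome activator subunit Psme1 (-0.22 ± 0.11). Eif2ak2 was at 95.5 and 82.2 CPM in the controls and 107 and 129 CPM after Cpeb4 siRNA, without overlap, and Parp9 at 90.9 and 70.3 against 105 and 114 CPM. Neither passed over all genes (edgeR adjusted p = 0.102 and 0.0847).

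Further class I genes of the rat RT1 complex, named after their values were seen, had values of both signs. RT1-A1, which is also counted in the wider list, was at -0.28 ± 0.15, RT1-CE7 at -0.72 ± 0.23 and RT1-CE4 at -0.46 ± 0.24 (log2 fold changes). RT1-CE10 was at -0.29 ± 0.19 and RT1-CE3 at -0.02 ± 0.25, whereas RT1-S3 was at 0.27 ± 0.12 and RT1-CE5 at 0.21 ± 0.16. RT1-CE7 was at 50.6 CPM in control replicate 1 and at most 25.2 CPM in the other 3 libraries, so its value rests on that library. None of these RT1 genes was called, the lowest edgeR adjusted p being 0.0971 for RT1-CE7. The genes are similar enough in sequence that unique mapping makes their counts uncertain.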

How the data were processed

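The authors deposited raw counts of ribosome footprints per Ensembl gene. Per the submitters' processing notes, Bowtie2, STAR 2.7, HTSeq 0.12 and Rnor_6.0 were used, with roles and strand setting not given in the sources used here. Per the file names, reads were 29 to 34 nt, and 29 to 33 nt in Cpeb4 siRNA replicate 2. The HTSeq summary rows (reads without a feature 4.42% to 4.63%, ambiguous reads 0.0798% to 0.0916%) were left out.

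The quasi-likelihood test of edgeR 4.0.16 (R 4.3.3) ran on all genes passing filterByExpr (minimum count 10), with TMM, group as the only term, two-sided, and Benjamini-Hochberg adjustment over 11335 genes. SE were derived from the F statistic. CPM are counts over the library's gene total, as mean ± SD (n = 2). Log2 values of single libraries use a pseudocount of 1. The steps were tested on simulated counts. Alternatives were RLE, library totals, DESeq2 1.42.0, limma-voom 3.58.1, other filters, a threshold of 0.10, leaving out each library, and a block on the replicate number. Replicates differed by more than sampling noise (chi-square per degree of freedom 3.00 and 5.32).

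The 38 genes and the lists were chosen with earlier results of these data known. Values in every library are given for genes called, with an unadjusted p under 0.05 or above 100 CPM. Others were named after their values were seen, in the text where stated and otherwise Rsad2, Bst2, Cxcl10, Isg15, RT1-A2 and, by its counts, Gbp4. Wider-list genes were named by p, with the receptors. Single values of some genes on these lists are not reported here. The sequences are from RefSeq. Gene coordinates in Rnor_6.0 were not used here.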

Additional observations from a re-analysis of the deposited data

How the results depend on the processing

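Ifi44 stayed called in 11 of 11 alternatives, at log2 fold changes of -1.05 to -0.88. Over all genes tested 386 were called, against 606 without the low-count filter (14513 tested), 192 with DESeq2, 629 at an adjusted p under 0.10 and 212 to 318 with 1 library left out. How many genes these sets share was not counted. Of the 34 interferon and antigen presentation genes 2 were called, beside 3.41% of all genes tested. Only Ifi44 was called with RLE scaling (beside 3.33% of all genes tested), library totals (3.07%), the 30-count filter (3.73%), DESeq2 (2.86%) and limma-voom (3.31%). Without the low-count filter and at 0.10, 4 were called (Ifi44, Mx1, Mx2 and Usp18), beside 4.18% and 5.55% of all genes tested. DESeq2 gave no adjusted p to 7 of the 34. With library totals the sign turned for Tlr3 (0.0080), Irf7 (0.022) and Ifitm3 (0.011).

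The replicate numbers gave no sign of pairing (correlation of deviations -0.11 over 11335 genes). Whether the samples were prepared in pairs is not stated, and this correlation cannot settle it. With the replicate number as a block, 2 of the 34 genes and 403 of all (3.56%) were called, and Irf7 turned to 0.0018. With the numbers crossed, an alternative chosen after seeing the data, 3 of the 34 and 481 of all (4.24%) were called.

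Leaving out 1 library turned the sign of 17 uncalled genes. The log2 fold change ran from -0.13 to 0.15 for Tlr3, -0.027 to 0.39 for Ddx58, -0.091 to 0.20 for Irf1, -0.13 to 0.14 for Irf7, -0.28 to 0.29 for Isg15 and -0.011 to 0.28 for Ifit2. It ran from -0.0033 to 0.43 for Oas1a, -0.51 to 0.075 for Bst2, -0.23 to 0.16 for Ifitm3, -0.070 to 0.46 for Gbp2, -0.033 to 0.75 for Gbp5 and -0.12 to 0.63 for Cxcl10. It ran from -0.37 to 0.25 for Psmb8, -0.39 to 0.33 for Psmb9, -0.24 to 0.15 for Tap1, -0.016 to 0.21 for Tapbp and -0.018 to 0.21 for B2m. The cause was not tested. In these fits 1 group has a single library, which is assumed to vary like the other group. Gbp4, with 6 to 19 counts a library, had the widest SE of the 34 genes (0.46).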
